A study of Danio rerio with 16 samples.

Results

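The genes described here carry nuclear-encoded proteins into mitochondria and place them there, and their mRNA was followed in cultured zebrafish ovary. They were chosen by name: every gene on a primary chromosome whose symbol begins with timm or tomm and a number (23 genes), plus oxa1l, dnajc19, pam16, grpel1, pmpca, pmpcb, samm50, and mtx2 (8 genes). This gave 31 of the 26910 genes that the 3 count tables share, and the rule itself uses names and positions alone. The genes were, however, chosen with earlier results of these data known, so counts among them beside shares of all genes are descriptive. Ovaries of adult wild-type zebrafish (Danio rerio) were cut into sections and kept in culture at 28 °C for 6 h. PNX-20 was added at 100 nM, both A8535 and PT-91 were added at 5 µM, and control sections received only the DMSO solvent, with 4 RNA-seq libraries in each group. PNX-20 is zebrafish phoenixin, a peptide hormone, and A8535 and PT-91 are synthetic agonists of SREB1, an orphan G protein-coupled receptor. In all groups the fish were wild type, and ovaries dominated by early follicle stages were preferred. In the study's methods each fish gave a section to each treatment, so libraries of different groups may come from one fish, but the labels do not say which libraries share a fish. The p-values therefore measure the spread between these libraries, taken as independent.

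Nearly all mitochondrial proteins are encoded in the nucleus, made in the cytosol, and threaded through the outer membrane by the TOM complex. From there the TIM23 complex and its ATP-driven motor pull in precursors that carry a cleavable leader, the small TIM chaperones and TIM22 deliver carrier proteins to the inner membrane, and the SAM complex folds barrel-shaped proteins into the outer membrane. OXA1L inserts proteins into the inner membrane from the inside, including those translated on mitochondrial ribosomes. Growing oocytes are known for making mitochondria in very large numbers.

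Assigned reads per library ranged from 10233870 to 15104959, of which 15622 to 40841 fell in the 31 import genes. Values are given as CPM, a gene's reads relative to its library's total after scaling by edgeR's TMM factors over all 16 libraries, and lists of 4 values run from replicate 1 to replicate 4. The tissue carried oocyte genes at high level, with h1m at 2575 CPM and zp3a.1 at 2534 CPM, and the steroid-producing follicle cell gene cyp11a1 at 177 CPM. The libraries that stood apart were 3: PT-91 replicates 1 and 2 and A8535 replicate 2 had reads in 19706, 19656, and 19047 genes, against 20878 to 23967 genes in the other 13. They also had the highest shares of mitochondrially encoded reads, at 4.08%, 3.98%, and 3.95%, against 0.190% to 2.31% in the others. The summed import genes were highest in the same libraries, at 3241, 3142, and 2890 CPM, against 1329 to 2309 CPM elsewhere. Fewer cells of a type and less RNA per cell cannot be told apart in whole ovary sections.

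Levels between genes were compared as CPM per kilobase of gene length. The small TIM chaperone timm8b was the highest, at 442 CPM per kilobase averaged over the 16 libraries, followed by the outer-membrane subunit tomm5 at 214, the chaperone timm9 at 206, the receptor tomm20a at 139, and tomm7 at 123 CPM per kilobase. The pore gene tomm40 stood at 54.1 CPM per kilobase and was the steadiest of the 31, with a coefficient of variation of 10.7% over the 16 libraries. The lowest were timm23b at 2.45 and timm17b at 0.374 CPM per kilobase. The most variable of the genes above 1 CPM on average were timm8a and tomm5, with coefficients of variation of 102% and 97.8%. Of the 31 genes, 18 had their highest CPM in 1 of the 3 libraries that stood apart, 10 of them among the 11 genes shorter than 1000 bases and 8 among the 20 longer genes. The share of all genes that peaked there was not counted. Short genes at large also stood above their own means there. The median log2 excess was 0.71 in A8535 replicate 2 and 0.74 and 0.90 in PT-91 replicates 1 and 2.

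**Figure D1:**
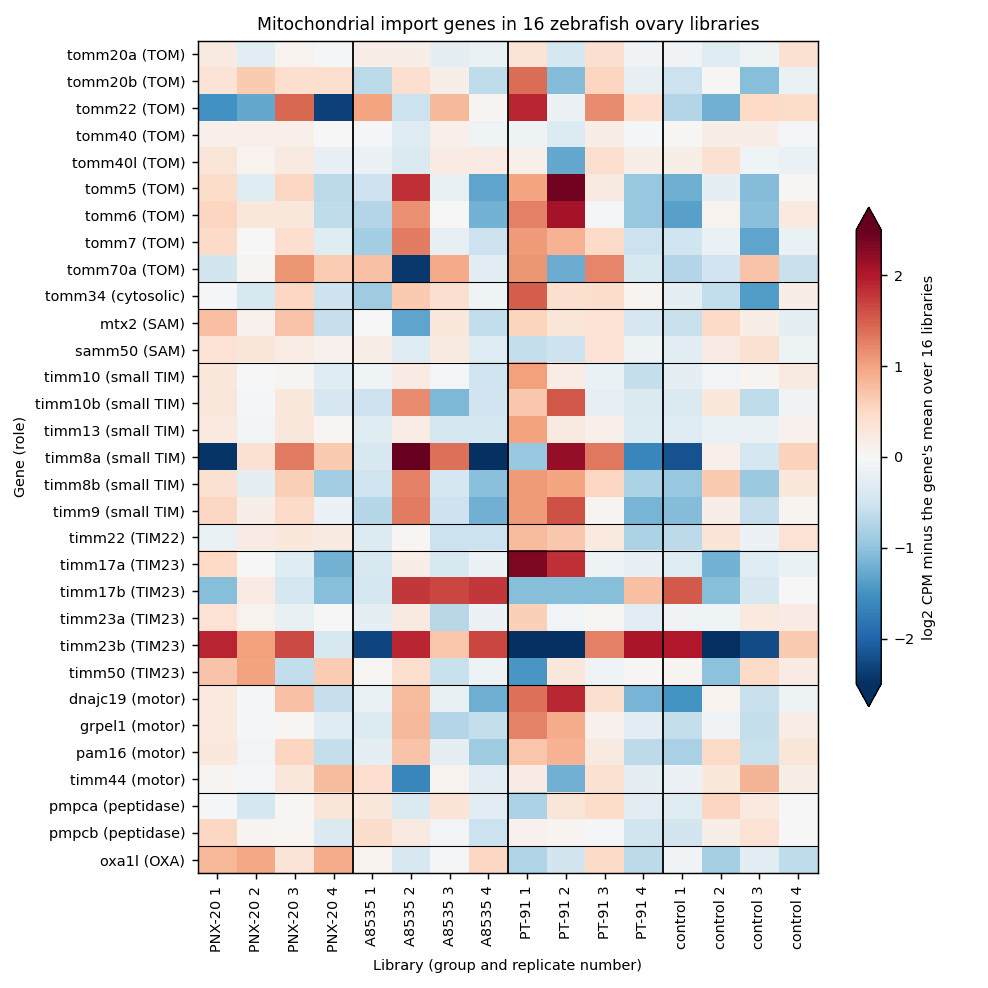
Heat map of log2 CPM minus the gene's own mean over the 16 libraries, with the 31 import genes down the page by role and the libraries across by group; the color scale ends at 2.5 on either side and darker values beyond it are cut to the end color. PT-91 replicates 1 and 2 and A8535 replicate 2 are red for many small TOM, small TIM, and motor genes, while oxa1l is red in the 4 PNX-20 libraries.

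The comparisons with the control asked which import genes respond to the hormone or to either agonist, and share the 4 control libraries. After adjustment over all genes edgeR called none at 0.05. That was 0% of 17118 genes for PNX-20, 0% of 17377 genes for A8535, and 0% of 17276 genes for PT-91 against control, and 0% of 19216 genes between PT-91 and A8535. At an unadjusted p under 0.05 edgeR had 223 higher and 207 lower genes with PNX-20, 306 and 125 with A8535, 920 and 257 with PT-91, and 293 and 142 between the agonists. DESeq2 called 19, 3, 34, and 2 genes in the same order, and oxa1l with PNX-20 was the only import gene among them. Of the 31 import genes, 30 passed the filter on low counts in the 3 comparisons with the control, all but timm17b, and 31 passed it for PT-91 against A8535. The counts that follow use an unadjusted p under 0.05 in edgeR and describe single genes that did not survive adjustment.

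With PNX-20, oxa1l and the receptor gene tomm20b were higher than in control at that p, and no import gene was lower (2 and 0 of 30, against 1.3% and 1.21% of all genes). They were also the 2 genes whose PNX-20 libraries lay above every control library, and no gene lay below (2 and 0 of 30, against 0.765% and 0.888% of all genes). The fitted change was positive for 28 of the 30 genes, against 48.6% of all genes. Its median was 0.26 on the log2 scale against -0.02 over all genes. With alternate copies of a gene summed, 27 of 30 were positive and the median was 0.18. The number of positive genes moved with single libraries. It was 20 of 30 without control replicate 1 (median 0.18), 24 without PNX-20 replicate 1, and 29 without PNX-20 replicate 2. With A8535 no import gene passed in either direction (0 of 30, against 1.76% higher and 0.719% lower among all genes), and none had groups without overlap (1.16% and 0.823% of all genes). The median change with A8535 was 0.21 against -0.04 over all genes, with 19 of 30 positive against 46.4% of all genes. That median was -0.03 when A8535 replicate 2 was left out, 0.33 when A8535 replicate 4 was, and 0.08, 0.13, and 0.36 when control replicate 1, 3, or 4 was.

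With PT-91, 8 import genes were higher and none lower (8 and 0 of 30, against 5.33% and 1.49% of all genes): timm17a, tomm7, tomm34, tomm5, grpel1, dnajc19, tomm6, and tomm22. All 8 had an adjusted p of 0.712 in edgeR, and in none did the PT-91 and control libraries separate, nor in any other import gene (0 of 30, against 1.15% higher and 1.58% lower among all genes). The median change was 0.54 against 0.00 over all genes, with 23 of 30 positive against 50.2% of all genes. The count rested on few libraries: it was 2 when PT-91 replicate 1 was left out, 4 when replicate 2 was, and 12 when replicate 4 was. It was 4 when control replicate 1 and 2 when control replicate 3 was left out. With the replicate number as a block it was 2. The median was 0.34 when PT-91 replicate 1 and 0.32 when PT-91 replicate 2 was left out. Without both of these the count was 0 and the median was 0.07. The timm17a call was also lost when its 2 gene copies were summed, at 0.63 ± 0.35.

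Between the agonists, given at one dose and time, timm17a and timm13 were higher with PT-91 than with A8535 and none was lower (2 and 0 of 31, against 1.52% and 0.739% of all genes). No import gene had groups without overlap (0 of 31, against 0.505% higher and 0.718% lower). The median difference was 0.40 against -0.04 over all genes, with 22 of 31 positive against 47.5% of all genes. That median was 0.14 when PT-91 replicate 1 and 0.24 when A8535 replicate 4 was left out. With gene copies summed timm17a was at 0.65 ± 0.32 and no longer passed. The count of genes in either direction also moved with single libraries: it was 11 when A8535 replicate 2 was left out, 6 when PT-91 replicate 4 was, 1 when A8535 replicate 1, 3, or 4 was left out, 3 when PT-91 replicate 3 was, and 0 when PT-91 replicate 1 was or when the 3 libraries that stood apart were. The 6 held timm17b and the 3 held oxa1l as genes lower with PT-91, timm17b having no reads in the 3 PT-91 libraries that remained. Since timm17b passed the filter mainly through its A8535 reads (1, 14, 16, and 12), its call is no support for a difference.

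**Figure D2:**
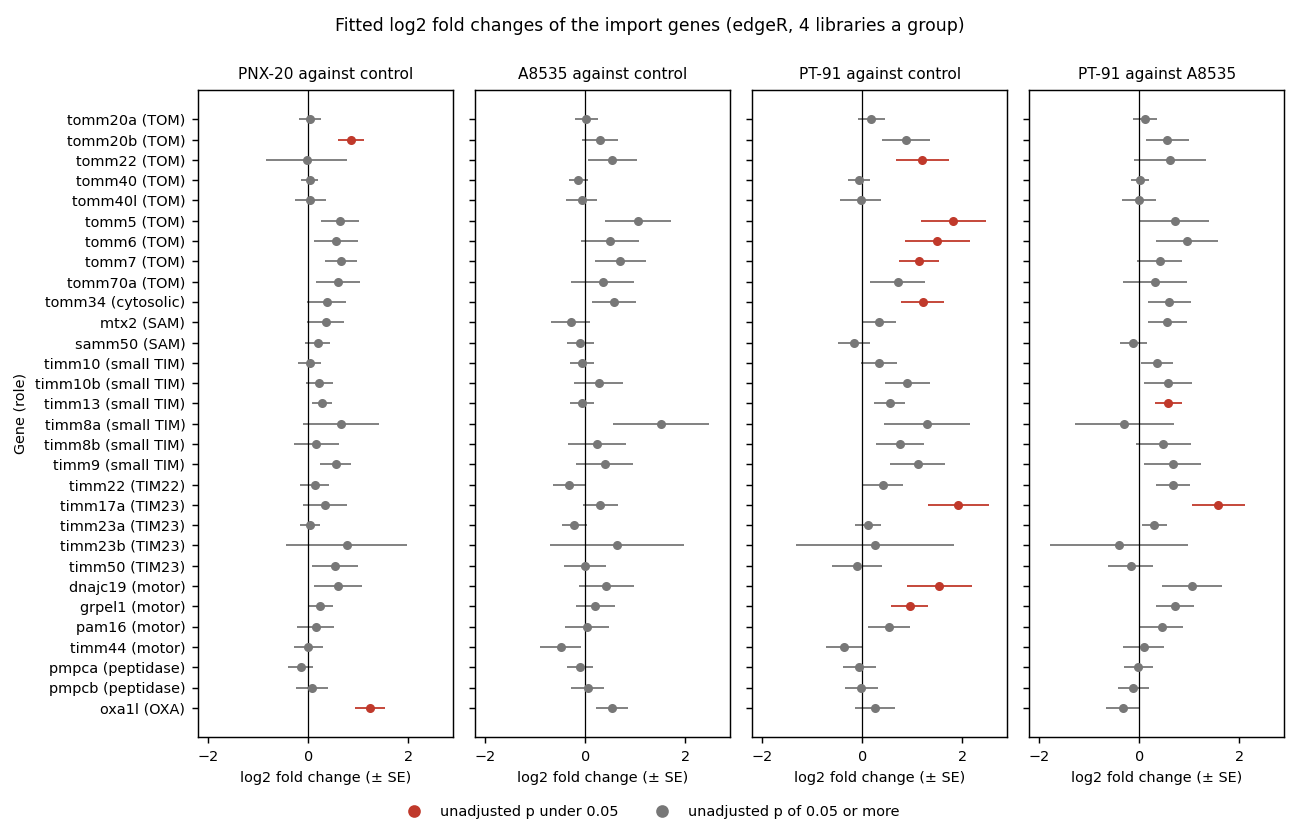
Log2 fold changes with their standard errors from edgeR for 30 import genes in the 4 comparisons, grouped by role, with genes at an unadjusted p under 0.05 in red; timm17b, which was tested only for PT-91 against A8535, is not drawn. Red points are oxa1l and tomm20b for PNX-20, none for A8535, 8 genes for PT-91 against control, and timm17a and timm13 for PT-91 against A8535.

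The receptors of the TOM complex bind precursor proteins at the mitochondrial surface, and Tom20 reads the helical leader of matrix proteins. The gene tomm20b (chromosome 11, 44637516 to 44647314 in GRCz11) had 113, 139.5, 119, and 118 CPM with PNX-20, 55.3, 118, 98.4, and 57.0 CPM with A8535, and 234, 41.6, 128, and 77.1 CPM with PT-91, against 61.3, 91.1, 42.0, and 79.1 CPM in control. The PNX-20 libraries lay close together and all above the control, whereas the PT-91 libraries held both the highest and the lowest of the 16 values. In edgeR tomm20b differed from control by 0.85 ± 0.26 (log2, SE, n = 4 each, 95% interval 0.26 to 1.44, adjusted p = 0.998) with PNX-20, and by 0.88 ± 0.48 (-0.18 to 1.94) with PT-91. Values after ± are standard errors on the log2 scale unless called SD, and the ranges that follow them are 95% intervals. With the spread estimated over all 16 libraries the PNX-20 difference was 0.85 and no longer passed an unadjusted p of 0.05.

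Its paralog tomm20a had 175, 124, 159, and 144 CPM with PNX-20, 168, 167, 129, and 133 CPM with A8535, and 191, 111, 199, and 140.2 CPM with PT-91, against 140.3, 122, 138, and 196 CPM in control. These groups overlapped throughout, with a PNX-20 difference of 0.03 ± 0.22 (95% interval -0.46 to 0.52). Per kilobase, tomm20a stood 1.12 times as high as tomm20b with PNX-20, 1.65 times with A8535, and 1.21 times with PT-91, against 1.98 times in control. Tom70, the receptor for carrier proteins, is taken up with the duplicated gene copies. The central receptor gene tomm22 ranged from 4.24 to 59.6 CPM with PNX-20, 15.0 to 43.5 CPM with A8535, and 19.7 to 82.5 CPM with PT-91, against 9.39 to 31.0 CPM in control. It differed from control by 1.20 ± 0.53 (0.02 to 2.37) with PT-91, and with PNX-20 its replicate 3 was far above the other 3.

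Tom40 forms the barrel through which precursors cross the outer membrane. Its gene tomm40 had 174, 174, 174, and 159 CPM with PNX-20, 154, 128, 172, and 147 CPM with A8535, and 145, 125, 179, and 156 CPM with PT-91, against 161, 176, 179, and 155 CPM in control. No difference from control exceeded the spread: the 95% interval ran from -0.34 to 0.41 under PNX-20, from -0.57 to 0.30 under A8535, and from -0.57 to 0.43 under PT-91. The related gene tomm40l had 22.1, 18.8, 20.7, and 15.4 CPM with PNX-20, 16.0, 13.7, 20.4, and 20.5 CPM with A8535, and 19.5, 7.26, 23.7, and 19.7 CPM with PT-91, against 19.7, 23.3, 16.5, and 15.8 CPM in control. Per kilobase tomm40 stood 4.73 times as high as tomm40l over the 16 libraries, and between 3.88 and 9.38 times in single libraries, the last in PT-91 replicate 2.

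The small subunits Tom5, Tom6, and Tom7 sit around the pore and steady the complex. The gene tomm5 had 141, 84.0, 148, and 64.7 CPM with PNX-20, 71.7, 366, 90.5, and 41.4 CPM with A8535, and 205, 546, 120.4, and 53.2 CPM with PT-91, against 44.1, 88.4, 48.3, and 104 CPM in control. The high values were those of A8535 replicate 2 and PT-91 replicates 1 and 2, and PT-91 replicate 4 lay within the control range. The PT-91 difference was 1.82 ± 0.65 (0.37 to 3.26). It was 0.29 without PT-91 replicates 1 and 2, and the A8535 difference of 1.05 ± 0.66 (-0.42 to 2.53) was -0.03 without A8535 replicate 2.

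For tomm7 the values were 88.9, 63.2, 85.2, and 51.5 CPM with PNX-20, 35.4, 156, 55.4, and 44.0 CPM with A8535, and 133, 116, 89.6, and 44.2 CPM with PT-91, against 45.1, 57.1, 25.4, and 56.9 CPM in control. PT-91 replicates 1, 2, and 3 exceeded every control library, and replicate 4 lay within the control range. The difference with PT-91 was 1.14 ± 0.40 (0.25 to 2.03), or 0.54 without the first 2 replicates, and with PNX-20 it was 0.66 ± 0.32 (-0.06 to 1.37). The gene tomm6 ranged from 22.7 to 50.6 CPM with PNX-20, 15.4 to 77.5 CPM with A8535, and 18.1 to 149 CPM with PT-91, against 13.6 to 41.8 CPM in control, and differed by 1.501 ± 0.65 (0.06 to 2.94) with PT-91. Summed over its 9 genes, the TOM group averaged 747 ± 110 CPM with PNX-20, 717 ± 233 CPM with A8535, and 937 ± 277 CPM with PT-91, against 598 ± 82.7 CPM in control (SD, n = 4 each).

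Tomm34, known in mammals as a cytosolic partner of heat shock proteins that bind precursors, had 39.5, 30.6, 58.6, and 28.4 CPM with PNX-20, 22.0, 64.5, 54.0, and 37.8 CPM with A8535, and 117, 53.9, 55.4, and 42.9 CPM with PT-91, against 34.7, 26.6, 15.5, and 46.0 CPM in control. PT-91 replicate 1 was the highest of the 16, and PT-91 replicate 4 lay below control replicate 4. The difference with PT-91 was 1.20 ± 0.43 (0.25 to 2.16), and 0.69 without PT-91 replicates 1 and 2.

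**Figure D3:**
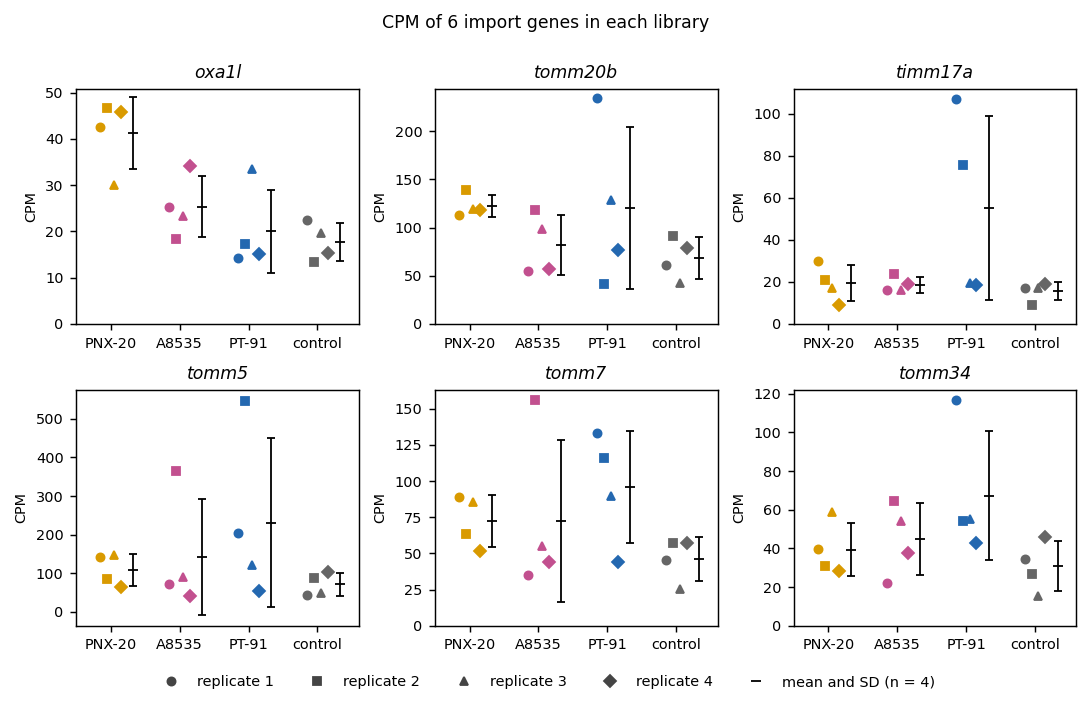
CPM of 6 import genes in each library, with groups across and replicate numbers by symbol; bars give the mean and SD of 4 libraries. The PNX-20 libraries of oxa1l and tomm20b lie above all control libraries, and the high PT-91 values of timm17a come from replicates 1 and 2.

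The barrel-forming core gene of the SAM complex, samm50, ranged from 38.2 to 45.5 CPM with PNX-20, 28.1 to 41.0 CPM with A8535, and 23.4 to 45.1 CPM with PT-91, against 29.2 to 46.2 CPM in control. Metaxin 2 is its partner on the cytosolic face, and mtx2 had 61.6, 39.1, 59.7, and 24.3 CPM with PNX-20, 36.9, 14.5, 44.0, and 23.7 CPM with A8535, and 54.0, 45.3, 46.9, and 27.4 CPM with PT-91, against 24.7, 50.8, 41.0, and 30.7 CPM in control. Every treated group overlapped the control in both genes, and none passed an unadjusted p of 0.05.

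The small TIM chaperones escort hydrophobic precursors across the space between the membranes, Tim9 with Tim10 and Tim8 with Tim13. The gene timm9 had 163, 128, 159.9, and 103 CPM with PNX-20, 69.8, 282, 79.8, and 49.5 CPM with A8535, and 241, 347, 121, and 51.0 CPM with PT-91, against 54.2, 128, 77.3, and 121 CPM in control. Its PT-91 difference was 1.11 ± 0.54 (-0.10 to 2.31), and it was 1.42 and past an unadjusted p of 0.05 without PT-91 replicate 4. It was -0.14 without replicates 1 and 2.

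For timm8b, the highest of the 31 per kilobase, the values were 192, 126, 223, and 81.5 CPM with PNX-20, 103, 355, 109.6, and 71.5 CPM with A8535, and 306, 289.7, 209.8, and 85.0 CPM with PT-91, against 76.3, 231, 76.8, and 177 CPM in control. The control range held PT-91 replicates 3 and 4 and every PNX-20 library, and the PT-91 difference was 0.76 ± 0.49 (-0.32 to 1.84). Its paralog timm8a, the gene whose human counterpart is lost in a deafness and dystonia syndrome, had 2.11, 16.0, 30.4, and 19.4 CPM with PNX-20, 9.42, 75.8, 31.9, and 1.96 CPM with A8535, and 6.27, 56.8, 30.6, and 3.83 CPM with PT-91, against 2.59, 13.3, 9.01, and 18.4 CPM in control. Its highest library was 38.8 times its lowest, and timm8b was 9.54 to 253 times as high per kilobase. Within the A8535 libraries the 2 genes both peaked in replicate 2 and were both lowest in replicate 4.

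The gene timm13 was steadier, with 126, 102, 129, and 109 CPM with PNX-20, and 213, 125, 116, and 83.6 CPM with PT-91, against 85.8, 120.3, 77.7, and 78.4 CPM with A8535. The control libraries had 84.6, 94.2, 94.5, and 115 CPM. PT-91 exceeded A8535 by 0.58 ± 0.27 (0.01 to 1.16, adjusted p = 0.967 in edgeR) and the groups overlapped. Without PT-91 replicate 1 the difference was 0.25 and did not pass. The other members, timm10 and timm10b, ranged from 37.4 to 115 and from 40.5 to 256 CPM over the 16 libraries, and neither passed in any comparison. The fitted difference from control was positive for all 6 chaperone genes under PNX-20 (median 0.25) and under PT-91 (median 0.83), and for 4 of the 6 under A8535 (median 0.25). Over all genes 48.6%, 50.2%, and 46.4% were positive in the same order. Without PT-91 replicates 1 and 2 the PT-91 difference was -0.14 for timm9, 0.05 for timm13, and 0.67 for timm8a. Without A8535 replicate 2 the A8535 difference was -0.48, -0.23, and 0.47 for these genes.

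Tim22 is the channel that inserts carrier proteins into the inner membrane. Its gene timm22 had 33.2, 43.0, 44.4, and 43.2 CPM with PNX-20, and 64.0, 59.4, 43.7, and 21.5 CPM with PT-91, against 29.3, 38.4, 25.6, and 25.5 CPM with A8535. The control libraries had 23.3, 46.5, 33.3, and 47.9 CPM, a range that held every PNX-20 and A8535 value and PT-91 replicate 3. PT-91 exceeded A8535 by 0.68 ± 0.34 (-0.04 to 1.40), and by 0.86, past an unadjusted p of 0.05, without PT-91 replicate 4. The difference was 0.49 without PT-91 replicate 1 and 0.30 without the 3 libraries that stood apart, and neither passed.

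The TIM23 complex is the gate for precursors with a leader: Tim23 forms the channel with Tim17, and Tim50 receives the precursor. The gene timm17a (chromosome 11, 24900263 to 24906264 in GRCz11) had 29.8, 21.0, 17.1, and 9.21 CPM with PNX-20, 15.9, 23.9, 15.9, and 19.1 CPM with A8535, and 107, 75.5, 19.3, and 18.3 CPM with PT-91, against 16.9, 9.23, 16.9, and 18.9 CPM in control. PT-91 replicates 1 and 2 were above all of the other 14 libraries, and replicates 3 and 4 lay in or just above the control range. The PT-91 difference was 1.92 ± 0.60 (0.59 to 3.26, adjusted p = 0.712 in edgeR) against control and 1.58 ± 0.53 (0.45 to 2.71, adjusted p = 0.967) against A8535. These values are of the chromosome copy alone. With the alternate copy added they were 0.63 and 0.65 and neither passed. Without the 3 libraries that stood apart the chromosome copy was at 0.29 and 0.16, and neither passed an unadjusted p of 0.05.

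The second Tim17 gene, timm17b, was nearly silent, with 65 reads in all 16 libraries together, none in 6 of them, and at most 16 in a library. A count of 0 allowed up to 0.227 to 0.325 CPM in those libraries (3 counts each, counting error only). It stood at 0.0914, 1.02, 0.944, and 1.02 CPM with A8535, 0, 0.234, 0.0891, and 0 CPM with PNX-20, and 0, 0, 0, and 0.416 CPM with PT-91, against 0.836, 0, 0.0980, and 0.180 CPM in control. Per kilobase the chromosome copy of timm17a was 55.8 times as high, with its alternate copy, at 44.9 CPM on average, not included.

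Of the Tim23 genes, timm23a was steady, with 159.5, 133, 109, and 125 CPM with PNX-20, 105, 144, 77.0, and 112 CPM with A8535, and 188, 118, 126, and 103 CPM with PT-91, against 117, 115, 146, and 144 CPM in control. Its differences from control all lay within the spread, with a 95% interval of -0.46 to 0.70 for PT-91. Its paralog timm23b was low and uneven, at 7.90, 4.21, 6.59, and 1.47 CPM with PNX-20, 0.274, 7.88, 3.30, and 6.64 CPM with A8535, and 0, 0.217, 5.00, and 8.65 CPM with PT-91, against 8.45, 0, 0.294, and 3.23 CPM in control. Of these, 5 libraries held at most 3 reads of timm23b and the other 11 at least 16, and both kinds occurred in A8535, PT-91, and control. Per kilobase timm23a stood 33.1 times as high. The receptor gene timm50 ranged from 4.92 to 27.7 CPM and passed in no comparison.

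The import motor draws precursors into the matrix with the heat shock protein Hspa9, which Tim44 tethers to the channel, Dnajc19 and Pam16 switch on and off, and Grpel1 recharges. The gene pam16 had 55.2, 44.1, 66.8, and 30.6 CPM with PNX-20, 38.8, 76.4, 39.2, and 24.9 CPM with A8535, and 74.6, 84.4, 54.1, and 29.3 CPM with PT-91, against 26.4, 64.1, 31.4, and 57.4 CPM in control. The groups overlapped. The gene dnajc19, with 41 to 342 reads a library, ranged from 6.63 to 16.5 CPM with PNX-20, 4.17 to 17.2 CPM with A8535, and 4.33 to 37.0 CPM with PT-91, against 3.43 to 10.6 CPM in control, and differed from control by 1.54 ± 0.65 (0.10 to 2.99) with PT-91.

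The nucleotide exchange factor grpel1 ranged from 88.5 to 131 CPM with PNX-20, 65.7 to 192 CPM with A8535, and 90.9 to 259.5 CPM with PT-91, against 72.7 to 125 CPM in control. Its PT-91 difference was 0.95 ± 0.38 (0.11 to 1.78). The tether timm44 had its lowest values in A8535 replicate 2, at 15.0 CPM, and PT-91 replicate 2, at 20.5 CPM, and stood at 54.2 CPM in PT-91 replicate 1. Its PT-91 difference was -0.36 ± 0.37 (-1.17 to 0.46).

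The processing peptidase cuts leaders off in the matrix, with Pmpcb as the catalytic and Pmpca as the recognizing subunit. The gene pmpca had 69.6, 52.8, 72.9, and 87.8 CPM with PNX-20, 85.5, 55.4, 89.8, and 59.6 CPM with A8535, and 41.0, 87.5, 97.5, and 59.1 CPM with PT-91, against 57.4, 103, 84.8, and 71.3 CPM in control. The gene pmpcb ranged from 17.5 to 36.6 CPM over the 16 libraries. All their fitted differences from control lay between -0.15 and 0.08. Summed they gave 98.3 ± 12.9 CPM with PNX-20, 99.4 ± 21.2 CPM with A8535, and 95.7 ± 26.7 CPM with PT-91, against 105.5 ± 24.2 CPM in control (SD, n = 4 each).

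The insertase gene oxa1l (chromosome 7, 19588612 to 19600175 in GRCz11) had 42.6, 46.7, 29.9, and 45.8 CPM with PNX-20, 25.3, 18.4, 23.4, and 34.2 CPM with A8535, and 14.2, 17.3, 33.4, and 15.2 CPM with PT-91, against 22.6, 13.4, 19.6, and 15.4 CPM in control. All 4 PNX-20 libraries exceeded all 4 control libraries, while A8535 and PT-91 each overlapped the control. The means were 41.3 ± 7.75 CPM with PNX-20 and 17.7 ± 4.13 CPM in control (SD, n = 4 each), on 160 to 599 reads a library. The difference was 1.23 ± 0.30 (0.57 to 1.90), a 2.35-fold higher level, with adjusted p = 0.998 in edgeR and adjusted p = 0.0271 in DESeq2. Leaving out any 1 of the 8 libraries gave 1.11 to 1.37, always past an unadjusted p of 0.05 in edgeR. A8535 differed from control by 0.53 ± 0.32 (-0.18 to 1.25) and PT-91 by 0.25 ± 0.40 (-0.64 to 1.14). PT-91 differed from A8535 by -0.33 ± 0.33 (-1.02 to 0.36), or by -0.68, past an unadjusted p of 0.05, without PT-91 replicate 3. The difference was -0.16 without A8535 replicate 4 and -0.17 without the 3 libraries that stood apart, and neither passed.

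The changes with PT-91 were larger among short import genes, and the same held for short genes at large. The 10 tested import genes under 1000 bases all had positive PT-91 differences, with a median of 1.00 and 4 at an unadjusted p under 0.05, and the 20 longer ones had a median of 0.25, with 13 positive and 4 at that p. Among all genes the median was 0.69 under 1000 bases and -0.03 above, and 20.9% and 3.77% of them were higher at that p. With PNX-20 the import gene medians were 0.55 and 0.22 (0.28 and -0.04 over all genes), with A8535 0.34 and 0.01 (0.16 and -0.05), and for PT-91 against A8535 0.58 and 0.10 (0.45 and -0.07). The short import genes stood highest in A8535 replicate 2 and PT-91 replicates 1 and 2, with median centered log2 CPM of 1.19, 1.06, and 0.98, and lowest in A8535 replicate 4 and control replicate 1, at -0.89 and -0.80. The part of gene length and of the detection rate in these differences was not tested. The length boundary was chosen after the values were seen.

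**Figure D4:**
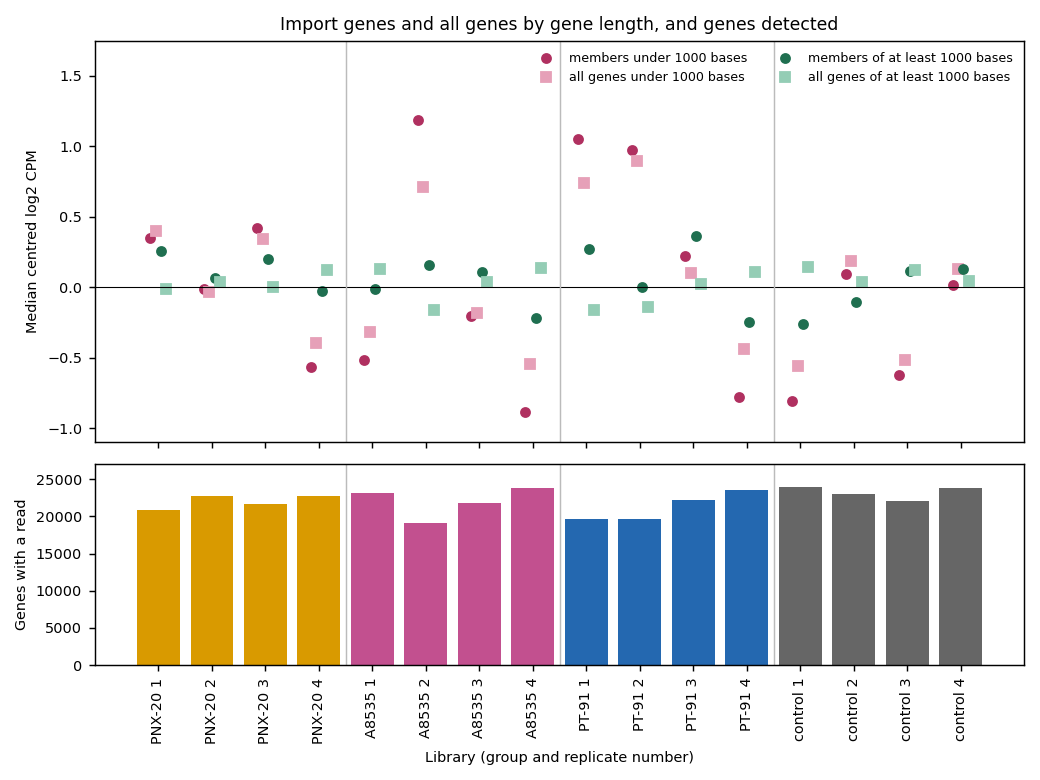
Upper panel: median log2 CPM, centered on each gene's mean over 16 libraries, for import genes (circles) and all genes passing the filter (squares) under and over 1000 bases in each library. Lower panel: genes with at least 1 read. Short import genes and short genes at large both stand high in A8535 replicate 2 and PT-91 replicates 1 and 2, the libraries with 19047 to 19706 genes detected.

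Of the import genes, 4 are listed more than once in the tables, with a second copy on an alternate scaffold of the assembly, so reads of 1 gene can be split between near-identical copies and their values are uncertain. The copy of timm17a on the alternate scaffold averaged 44.9 CPM, above the 27.1 CPM of the chromosome copy. It had 63.7, 39.0, 52.3, and 34.7 CPM with PNX-20, 39.6, 58.4, 34.5, and 38.6 CPM with A8535, and 43.2, 28.9, 47.4, and 44.0 CPM with PT-91, against 33.6, 77.4, 35.8, and 46.9 CPM in control. The copies summed gave 96.0 ± 40.9 CPM with PT-91, against 61.5 ± 14.2 CPM with A8535 and 63.9 ± 16.6 CPM in control (SD, n = 4 each), with 150.4 and 104 CPM in PT-91 replicates 1 and 2. The summed difference with PT-91 was 0.63 ± 0.35 (-0.15 to 1.41) against control and 0.65 ± 0.32 (-0.03 to 1.33) against A8535.

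The receptor gene tomm70a (chromosome 6, 28946050 to 28961628 in GRCz11) was also split. Its chromosome copy had 22.4, 32.6, 66.7, and 47.9 CPM with PNX-20, 51.4, 5.69, 60.0, and 25.6 CPM with A8535, and 66.5, 13.0, 72.5, and 23.8 CPM with PT-91, against 18.6, 22.3, 51.0, and 21.1 CPM in control. The alternate copy had 20.3, 24.5, 0.357, and 26.4 CPM with PNX-20, 13.6, 45.9, 0.531, and 52.9 CPM with A8535, and 50.5, 25.4, 1.14, and 57.8 CPM with PT-91, against 57.7, 33.2, 13.4, and 54.0 CPM in control. In each group replicate 3 had the least of the alternate copy and the most of the chromosome copy. Summed, the fitted difference from control was -0.16 ± 0.24 under PNX-20, -0.07 ± 0.22 under A8535, and 0.23 ± 0.34 under PT-91, against 0.60 ± 0.44, 0.35 ± 0.63, and 0.71 ± 0.55 for the chromosome copy alone. For timm50 the alternate copies averaged 29.3 and 1.89 CPM against 15.0 CPM on the chromosome, and for timm8a the alternate copy averaged 0.897 CPM against 20.5 CPM.

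**Figure D5:**
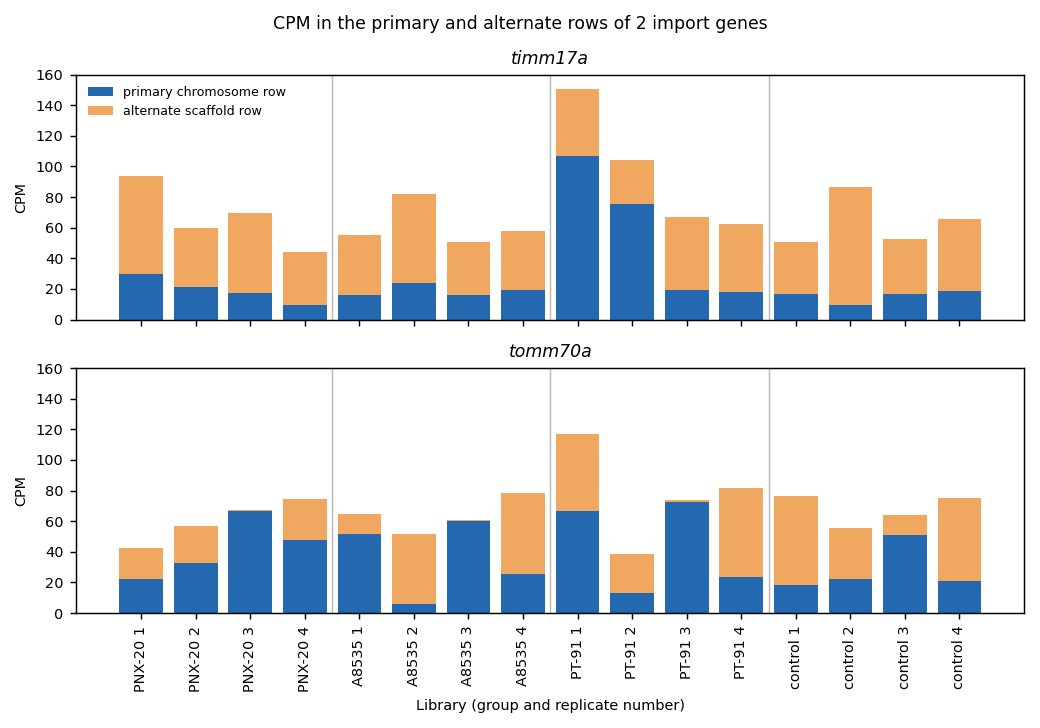
CPM of timm17a and tomm70a in each library, with the copy on the chromosome in blue and the copy on an alternate scaffold stacked above it in orange. The blue part of timm17a is tall in PT-91 replicates 1 and 2, and the orange part of tomm70a nearly vanishes in replicate 3 of PNX-20, A8535, and PT-91.

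Partner genes of import were taken from a list of 33 chaperones, peptidases, and assembly factors, of which 29 were in the tables. The 3 most abundant per kilobase were the cytosolic chaperone hsp90ab1 at 802 CPM per kilobase and the matrix chaperonin genes hspd1 and hspe1 at 153 and 129 CPM per kilobase. With PNX-20, 0 of 29 passed an unadjusted p of 0.05 in edgeR in either direction (all genes 1.3% higher and 1.21% lower). With A8535, 0 of 29 were higher (all genes 1.76%) and 1 of 29 lower (0.719%): apool, a MICOS cristae factor (-1.41 ± 0.57). The gene apool had 17.0, 7.29, 6.90, and 6.89 CPM with A8535, against 6.27, 40.5, 24.2, and 30.9 CPM in control. Control replicate 1 thus lay below every A8535 library. Similar low values occurred in PNX-20 replicate 3, at 7.13 CPM, and PT-91 replicates 3 and 4, at 7.35 and 5.82 CPM. With PT-91, 4 of 28 were higher (all genes 5.33%) and 0 lower (1.49%): hspe1 (1.48 ± 0.59), the intermembrane-space oxidoreductase chchd4b (1.25 ± 0.51), romo1 (1.15 ± 0.48), and the insertase cox18 (0.77 ± 0.33). Between PT-91 and A8535, 0 of 29 passed (all genes 1.52% higher and 0.739% lower). The gene hspe1 had 225, 503, 219, and 65.1 CPM with PT-91, against 46.0, 147, 62.9, and 135 CPM in control, so that here too replicate 4 lay within the control range.

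The nuclear genes of the respiratory chain, a large cargo of the import route, had median differences of 0.37, 0.18, and 0.75 for PNX-20, A8535, and PT-91 against control, and 0.46 for PT-91 against A8535. The medians over all genes were -0.02, -0.04, 0.00, and -0.04. At an unadjusted p under 0.05, 1 of 83 respiratory genes was higher with PNX-20 (all genes 1.3%), 1 of 82 with A8535 (1.76%), 25 of 84 with PT-91 (5.33%), and 4 of 85 with PT-91 over A8535 (1.52%), and 0 were lower in each. Of all genes under 1000 bases, 20.9% were higher with PT-91 at that p. The respiratory genes were not split by length and not refitted without PT-91 replicates 1 and 2. The 17 mitochondrially encoded genes tested had medians of 0.55, 1.56, 1.97, and 0.55 in the same comparisons. Of them 0 were higher at that p with PNX-20, 5 with A8535, 14 with PT-91, and 0 with PT-91 over A8535, against the same shares of all genes. Median centered log2 CPM of the respiratory genes was 0.90 and 0.80 in PT-91 replicates 1 and 2. It was 0.09 and -0.47 in replicates 3 and 4, 0.67 in A8535 replicate 2, and -0.65 to 0.10 in control. Mitochondrially encoded reads were 4.08% and 3.98% in PT-91 replicates 1 and 2, against 0.792% and 1.13% in replicates 3 and 4. With A8535 they were 0.703%, 3.95%, 2.31%, and 0.570% in replicates 1 to 4. The control range was 0.190% to 1.30%.

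Markers of the cell types in the ovary were measured in the same libraries. The 10 oocyte markers were all detected in every library. They summed to 9818 ± 1066 CPM with PNX-20, 7852 ± 1551 CPM with A8535, and 8516 ± 1833 CPM with PT-91. The control had 9702 ± 730 CPM (SD, n = 4 each). The A8535 libraries ran from 5636 CPM, in replicate 3, to 9175 CPM. The PT-91 libraries ran from 6710 to 10983 CPM, the highest of the 16. Both groups overlapped the control range of 8663 to 10345 CPM. The median difference of the oocyte markers was -0.30 with A8535, with 8 of 10 negative, and -0.20 with PT-91, with 7 of 10 negative. In each of these comparisons 1 of 10 was lower at an unadjusted p under 0.05 (all genes 0.719% and 1.49%) and 1 of 10 lay wholly below control (0.823% and 1.58%).

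The smooth muscle markers summed to 33.3 to 133 CPM with PNX-20, 37.8 to 118 CPM with A8535, and 40.7 to 110 CPM with PT-91, against 21.2 to 70.4 CPM in control (5 of 5 genes detected, desma without reads in 10 libraries). Of the 4 tested, 2 were higher with A8535 (all genes 1.76%) and 1 with PT-91 (5.33%). The 4 stroma markers summed to 15.8 to 43.4 CPM with PNX-20, 18.4 to 99.9 CPM with A8535, and 20.7 to 49.3 CPM with PT-91, against 7.74 to 37.3 CPM in control, and 0 passed, with medians of 0.22, 1.18, and 0.50 (pdgfra without reads in 2 libraries). The follicle cell markers summed to 321 to 430.3 CPM with PNX-20, 291 to 437 CPM with A8535, and 274 to 487 CPM with PT-91, against 245 to 569 CPM in control. Of 8 tested, 1 was higher with A8535 and 0 with PT-91, and the medians of 0.66 and 0.66 were positive although the summed means, 364 and 354 CPM, lay below the 413 CPM of control (star without reads in 3 libraries and inha in 1). The 4 leukocyte markers were low, summing to 2.58 to 16.6 CPM with PNX-20, 2.41 to 20.4 CPM with A8535, and 0.758 to 7.73 CPM with PT-91, against 1.37 to 3.85 CPM in control. Of the 2 tested 1 was higher with PNX-20 (all genes 1.3%), and mpeg1.1 and coro1a had no reads in 11 libraries each. The part of these cell types in the import gene differences was not tested.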

How the data were processed

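Ovary sections were cultured and sequenced as directional poly-A libraries, 4 in each of 4 groups, with groups taken from the labels. Per the labels and methods, the authors used fastp for read cleaning, HISAT2 (2.0.5) for alignment to the GRCz11 assembly, and featureCounts (1.5.0-p3) for the deposited raw counts, in 1 table per treatment with the same control libraries; the strand setting of the counting was not stated. The deposited tables also hold the authors' FPKM values, a scaled signal (counts divided by DESeq2 size factors), and the log2 fold changes and p-values of the authors' own DESeq2 comparisons, none of which was used. Deposited gene lengths gave levels per kilobase.

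The members and lists were chosen with earlier results of these data known. Each comparison with control was fitted on its 8 libraries, and PT-91 against A8535 on all 16 over the 26910 shared genes, in edgeR (4.0.16, R 4.3.3) with filterByExpr, TMM factors, and the quasi-likelihood test. Every p-value and adjusted p (Benjamini-Hochberg over all genes tested) is edgeR's unless DESeq2 (1.42.0) is named, and values after ± are standard errors unless called SD. Values in each library were given for oxa1l, the 4 genes with the smallest p in each comparison, the highest gene per kilobase in each role, and paralog pairs; values of other genes were chosen after they were seen. Partner genes were named at an unadjusted p under 0.05, up to 4 a comparison, with the 3 most abundant. Depth was 10233870 to 15104959 reads, so genes under about 1 CPM rest on few reads, and intervals for zero counts cover counting error only. Alternatives were other scalings, filters, DESeq2, other sets of libraries in the fit, gene copies summed, the replicate number as a block, and each library left out. Leaving out the 3 libraries with the fewest detected genes and splitting at 1000 bases were chosen after the data were seen. Fits were tested on simulated independent libraries with less spread than these data, so that test does not show how they perform at the real spread. Figures were drawn with matplotlib (3.10.9).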

Additional observations from a re-analysis of the deposited data

Results flagged for a closer look

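In 124 sets of 4 libraries (each gene in each group), 14 had 1 library set far from the other 3 by Dixon's ratio. Its cutoff is passed by about 1 in 20 sets of independent, normally distributed values. The sets share libraries and hold unlogged CPM, so 14 is not a tested excess. Of the 14, 6 were A8535 replicate 2. There grpel1 stood at 191.7 CPM (65.7 to 86.7 CPM in the other A8535 libraries), timm10b at 200.8 CPM (40.5 to 63.0 CPM), timm8b at 354.8 CPM (71.5 to 109.6 CPM), timm9 at 281.9 CPM (49.5 to 79.8 CPM), tomm5 at 366.2 CPM (41.4 to 90.5 CPM), and tomm7 at 155.8 CPM (35.4 to 55.4 CPM).

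In PT-91, oxa1l was high in replicate 3 at 33.42 CPM (14.2 to 17.3 CPM in the others) and tomm34 in replicate 1 at 116.7 CPM (42.9 to 55.4 CPM). With PNX-20, tomm22 was high in replicate 3 at 59.63 CPM (4.24 to 8.89 CPM), timm22 was low in replicate 1 at 33.17 CPM (43.0 to 44.4 CPM), and tomm40 was low in replicate 4 at 158.8 CPM (about 174 CPM in the others). In control, tomm70a was high in replicate 3 at 50.95 CPM (18.6 to 22.3 CPM). The near-silent timm17b was low in A8535 replicate 1 at 0.09143 CPM (0.944 to 1.02 CPM) and was seen in PT-91 only in replicate 4, at 0.416 CPM.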

How the results depend on the processing

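Counts at an adjusted p of 0.05 over all genes were 0 in edgeR and 19, 3, 34, and 2 in DESeq2 for PNX-20, A8535, and PT-91 against control and PT-91 against A8535, and 1 for PT-91 without the filter on low counts. The count of import genes at an unadjusted p under 0.05 was 2 with PNX-20, 1 with all 16 libraries in the fit, and 2 to 3 with 1 library left out. Without PNX-20 replicate 3 the 3 held tomm22 as a gene lower with PNX-20 (-1.58). The count was 0 with A8535, and 0 to 1 with 1 library left out, the 1 being timm8a (1.90) without A8535 replicate 4. With PT-91 it was 8, and 2 to 12 with 1 library left out. It was 7 with RLE scaling or with all 16 libraries in the fit, and 6 with library size scaling or with copies summed. Between PT-91 and A8535 it was 2, but 1 with library size scaling, with no filter, in DESeq2, on the 8 libraries alone, or with copies summed, and 0 to 11 with 1 library left out. Without the 3 libraries with few detected genes, the counts for PT-91 were 0 against control and 0 against A8535, and the median difference from control was 0.071. With 1 library left out, the median was 0.18 to 0.37 for PNX-20, -0.03 to 0.36 for A8535, 0.32 to 0.74 for PT-91, and 0.14 to 0.57 between the agonists. The causes of these shifts were not tested. No result changed sign while past its threshold, and oxa1l with PNX-20 stayed at an unadjusted p under 0.05 in each of its alternatives, from 2.71e-05 (DESeq2) to 0.0164 (replicate block).

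The replicate numbers were not shown to pair the libraries: of 24 pairs with the same number, 11 had correlated deviations over 0.1 (range -0.286 to 0.584), and 7 of 16 libraries correlated best with their own number. Among the 3 treated groups the 6 pairs of replicates 3 and 4 lay at 0.229 to 0.584, while those numbers gave -0.286 to 0.143 with control. Libraries with unlike numbers could also match. The partner gene mipep had 29.8 CPM in A8535 replicate 4, 29.0 CPM in PT-91 replicate 4, and 29.3 CPM in control replicate 1. The other libraries had 9.44 to 22.6 CPM of mipep. The partner gene letm1 matched in the same libraries, at 23.7, 21.6, and 22.2 CPM, and the others had 4.81 to 18.3 CPM of it. For tomm22 the matching libraries differed, at 23.15, 29.29, and 13.13 CPM. These genes were picked after the values were seen. Whether matching libraries share a fish was not tested. If they do, the replicate block joins sections of different fish, and the p-values leave out a pairing. With the replicate block the count was 2 for PT-91 against control (tomm34 and tomm7) and 1 for PT-91 against A8535 (timm17a, with timm13 lost). Few reads limit timm17b, with 0 reads in 6 libraries. The gene timm23b had 0 reads in 2 libraries that were not the shallowest. These were PT-91 replicate 1 and control replicate 2, at 13470005 and 12371204 assigned reads. It had 104 reads in PT-91 replicate 4, at 10233870 assigned reads.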
